A study of Mus musculus with 4 samples.

Results

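The genes described here make cholesterol and fatty acids, or carry out the opposing response to surplus sterol. The list holds 35 genes and was chosen by function, with earlier results of these data known. It has 30 synthesis genes under control of the sterol regulatory element binding proteins (SREBPs). The other 5 genes are tied to the liver X receptors (LXRs). An Affymetrix gene array measured 34 of the 35, among 19938 genes in all. Acat2, an acetoacetyl-CoA thiolase of the first step, was not analysed here.

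RNA came from colonies of mouse blood-forming cells on the C57BL/6 background, grown in methylcellulose with serum, stem cell factor, GM-CSF and the interleukins IL-3 and IL-6. The colonies had been started from long-term or short-term haematopoietic stem cells (LT-HSC, ST-HSC), transduced with CreER, a hormone-dependent Cre recombinase, or with a mock control. The series is titled for MLL-ENL, a fusion protein of leukaemia, expressed conditionally. There was 1 array for each of the 4 groups, ST-HSC mock, ST-HSC CreER, LT-HSC mock and LT-HSC CreER, and the design sets the transductions against each other in either population, and the populations against each other under either transduction. Which groups carried the conditional allele, whether CreER was activated, the age of the mice and whether animals were pooled: none of this is stated in the labels. The profiled cells were the progeny of the stem cells, not the stem cells themselves.

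Mammalian cells make cholesterol from acetyl-CoA through mevalonate, isoprenoid pyrophosphates, squalene and lanosterol. When sterol in the endoplasmic reticulum runs low, the SREBPs are carried to the Golgi apparatus, cut, and enter the nucleus, where they switch on the synthesis enzymes; INSIG proteins hold them back when sterol is plentiful. LXRs respond to oxysterols and raise the sterol exporters, so that the programmes usually run in opposite directions. Growing cells need both sterols and fatty acids for new membrane, and macrophages rely heavily on the LXR exporters.

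Promoter sequences from RefSeq (GRCm38.p6; 250 bases before to 50 after the gene start, 300 bases in all) were matched for 27 of the 35 genes, as 33 promoters. Scd1, Scd2, Stard4, Fdft1, Fdps, Sqle, Fads1 and Abcg1 were not searched. The letters searched, on both strands, were CCAAT (the box bound by NF-Y), CACGTG (a palindromic E-box), GGGCGG (a box bound by Sp1) and TCACNCCAC (a shortened sterol regulatory element). CCAAT stood in 14 of 18 promoters of sterol enzymes, 4 of 5 of the regulators, 2 of 5 of the fatty acid genes and 1 of 5 of the LXR side, against 37.4% of all 32851 promoters. GGGCGG stood in 15 of 18, 4 of 5, 2 of 5 and 2 of 5, against 35.7%. CACGTG stood in 3 of 18, 1 of 5, 0 of 5 and 1 of 5, against 7.15%. TCACNCCAC stood in 1 promoter, that of Hmgcs1, against 1.24%. The searches for TCACNTGA and for the longer SRE-1 element found no match among these promoters, against 4.18% and 0.0913% of all promoters. The LXR direct repeat DR4 was searched only as a perfect consensus repeat, which also had no match, against 0.0152%. Repeats with other letters were not searched, so whether these promoters, Abca1 included, carry such a DR4 was not tested. A match is a description of these letters and no match says only that they are not in this window. Of the 4 sequences below, Hmgcs1 carries the sterol element, Hsd17b7 carries several CCAAT boxes and an E-box, Insig1 is the regulator with the widest spread between arrays, and Abca1 stands for the opposing side. Capitals mark TCACNCCAC, CACGTG and CCAAT on either strand, and each run is the 250 bases before the gene start, 5′ to 3′ on the gene's strand.
Hmgcs1, chr13:119690101-119690350, plus strand: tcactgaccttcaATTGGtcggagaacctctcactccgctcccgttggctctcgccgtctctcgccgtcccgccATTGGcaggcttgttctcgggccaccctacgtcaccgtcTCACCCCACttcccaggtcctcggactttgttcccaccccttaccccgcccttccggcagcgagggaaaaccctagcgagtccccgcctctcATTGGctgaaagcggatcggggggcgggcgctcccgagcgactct
Hsd17b7, chr1:169969206-169969455, minus strand: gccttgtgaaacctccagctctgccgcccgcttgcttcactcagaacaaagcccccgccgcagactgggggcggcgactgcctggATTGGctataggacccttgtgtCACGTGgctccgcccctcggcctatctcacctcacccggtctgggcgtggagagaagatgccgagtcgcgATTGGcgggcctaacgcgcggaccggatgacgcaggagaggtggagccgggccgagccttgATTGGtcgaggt
Insig1, chr5:28071162-28071411, plus strand: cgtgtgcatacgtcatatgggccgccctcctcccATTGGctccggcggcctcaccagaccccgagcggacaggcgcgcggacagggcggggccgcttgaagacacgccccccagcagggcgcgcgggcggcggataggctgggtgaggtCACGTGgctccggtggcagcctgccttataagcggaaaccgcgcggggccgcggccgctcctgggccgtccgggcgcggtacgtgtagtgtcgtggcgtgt
Abca1, chr4:53159896-53160145, minus strand: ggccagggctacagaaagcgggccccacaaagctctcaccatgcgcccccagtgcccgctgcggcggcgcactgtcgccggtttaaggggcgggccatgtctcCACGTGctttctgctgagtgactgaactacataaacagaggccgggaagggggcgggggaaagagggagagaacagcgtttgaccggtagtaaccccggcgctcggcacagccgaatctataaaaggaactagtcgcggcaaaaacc

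Levels are log2 values as deposited, so a difference of 1 is 2-fold. They are compared between arrays for a gene and not between genes. The array medians lay between 7.75 and 7.82. A signal floor was set at each array's median over probe sets with 1 gene symbol, 8.07 to 8.13, and all 34 genes stood above it on all 4 arrays. The labelled cell type could be checked only as blood cells: 8 of 8 general blood cell markers, among them Ptprc, which encodes CD45, stood above the floor on every array, and 9 of 12 stromal, adipocyte and hepatocyte markers stood under it on every array. With 1 array per group, no pairwise difference has a replicate check. In RNA from mixed colonies, fewer cells of a type and less RNA per cell cannot be told apart.

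**Figure D1:**
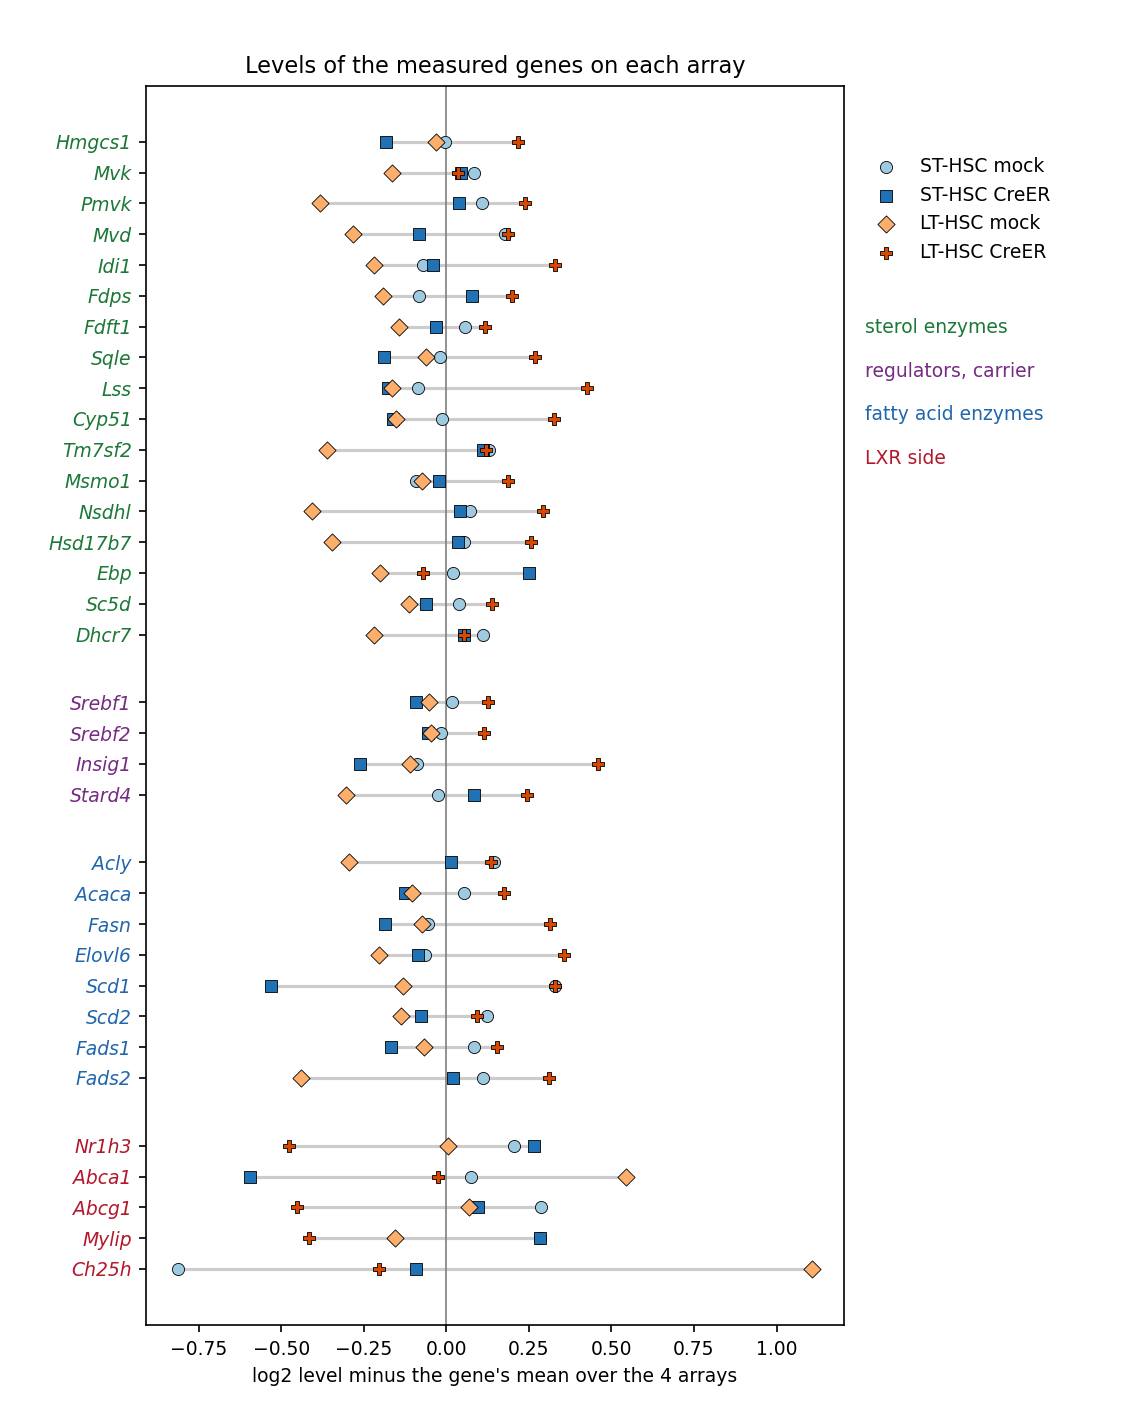
Log2 level of each of the 34 measured genes on each of the 4 arrays, drawn as the distance from that gene's mean over the arrays (x axis, log2 units). Symbols stand for arrays, gray lines span lowest to highest, and equal levels overlap; the LT-HSC CreER array is the highest for 23 of the 29 synthesis-side genes and the lowest for 3 of the 5 LXR-side genes.

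The synthesis genes were highest in CreER-transduced LT-HSC colonies. Of the 29 measured genes of the synthesis side, 23 had their highest level on the LT-HSC CreER array, against 20.8% of the 10411 genes that cleared the floor on any array. The lowest level fell on the LT-HSC mock array for 17 of the 29 and on the ST-HSC CreER array for 11. For 11 genes LT-HSC CreER was highest and LT-HSC mock lowest, an order found in 7.52% of all genes. No gene of the 29 had its lowest level with LT-HSC CreER or its highest with LT-HSC mock. The LXR side ran otherwise: Nr1h3, Abcg1 and Mylip were lowest on LT-HSC CreER, whereas Abca1 and Ch25h had their highest level with LT-HSC mock.

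In LT-HSC colonies, CreER went with more transcript of the listed synthesis genes that were measured and less of the listed LXR-side genes. Genes of the further pathway lists, given below, did not all share these directions. All 29 synthesis-side genes were higher with CreER, by 0.14 to 0.75 with a median of 0.39. Among all 10172 genes past the floor on the higher array, 44.4% were above 0 and the median was -0.03. The 90th percentile of all genes lay at 0.25, and 21 of the 29 were above it. The differences were modest: 5 of the 29 were at least 1.5-fold higher, against 1.02% of all genes, and none was 2-fold higher. Of the LXR side, 5 of 5 were lower, with a median of -0.52. Ch25h was the one member at least 1.5-fold lower, against 3.08% of all genes, and the one member past 2-fold in either direction, against 0.875%.

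Along the sterol pathway the differences were largest at several separate steps. Nsdhl, a dehydrogenase that helps remove the methyl groups at carbon 4 of lanosterol's products, was at 11.46 on LT-HSC CreER, 10.76 on LT-HSC mock, 11.21 on ST-HSC CreER and 11.24 on ST-HSC mock. The LT-HSC mock array was the low one and the others lay close together, so that CreER against mock was 1.63-fold in LT-HSC colonies and differed by -0.03 in ST-HSC colonies. Hsd17b7, the reductase that acts beside it and whose promoter is printed above, had the same shape, at 11.13, 10.53, 10.91 and 10.93 in that order of arrays. Its CreER difference was 0.61 in LT-HSC colonies and -0.02 in ST-HSC colonies. Pmvk, which phosphorylates mevalonate phosphate, was at 9.41 on LT-HSC CreER, 8.79 on LT-HSC mock, 9.21 on ST-HSC CreER and 9.28 on ST-HSC mock.

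A second shape was a high LT-HSC CreER array with the other arrays together. Lss, which closes squalene epoxide into lanosterol, was at 10.53 on LT-HSC CreER, 9.94 on LT-HSC mock, 9.93 on ST-HSC CreER and 10.02 on ST-HSC mock. Its CreER difference was 0.59 in LT-HSC colonies and -0.09 in ST-HSC colonies. Cyp51, which takes the first methyl group off lanosterol, was at 10.37, 9.89, 9.88 and 10.03 in the same order. Sqle, the epoxidase that is a rate-controlling step, was at 11.40, 11.07, 10.94 and 11.11, and Idi1, which interconverts the isoprenoid building blocks, at 10.90, 10.35, 10.53 and 10.50. Both probe sets of Idi1 gave this order of LT-HSC CreER over LT-HSC mock, by 0.55 and 0.68. For these genes the LT-HSC CreER array stood apart upward, whereas for Nsdhl, Hsd17b7 and Pmvk the LT-HSC mock array stood apart downward.

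Of the other sterol enzymes, Mvd (0.46), Tm7sf2 (0.48) and Fdps (0.39), the decarboxylase of mevalonate, the sterol C14 reductase and farnesyl pyrophosphate synthase, lay above the 90th percentile of all genes. Hmgcs1, the HMG-CoA synthase that commits carbon to the pathway and the one gene with TCACNCCAC among the 27 whose promoter was searched, was at 11.40 on LT-HSC CreER, 11.18 on ST-HSC mock and 11.15 on LT-HSC mock, and was lowest on ST-HSC CreER, where it differed from mock by -0.18. It was higher by 0.25 with CreER in LT-HSC colonies. Fdft1, the squalene synthase, was higher by 0.26 and 0.27 on its 2 probe sets, Msmo1 by 0.26, Dhcr7, which makes cholesterol in the last step, by 0.27, Sc5d by 0.25 and Mvk by 0.20. Ebp, the sterol isomerase, had the smallest difference, 0.14, and was highest on ST-HSC CreER, at 10.83 against 10.51 on LT-HSC CreER.

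Among the regulators, the feedback gene differed more than the transcription factors. Insig1, which retains SREBPs and is itself an SREBP target, was at 12.51 on LT-HSC CreER, 11.94 on LT-HSC mock, 11.79 on ST-HSC CreER and 11.96 on ST-HSC mock. It was 1.49-fold higher with CreER in LT-HSC colonies, and the LT-HSC CreER array stood apart from the other 3. Stard4, a soluble sterol carrier, was at 10.67, 10.12, 10.51 and 10.40 in the same order, a difference of 0.55. Srebf2, whose product mainly drives sterol synthesis, differed by 0.16, and Srebf1, whose product mainly drives fatty acid synthesis, by 0.18. Transcript levels do not report the cutting of SREBP proteins.

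The fatty acid genes went with the sterol genes. Fads2, the delta-6 desaturase of polyunsaturated fatty acids, was at 12.05 on LT-HSC CreER, 11.30 on LT-HSC mock, 11.76 on ST-HSC CreER and 11.85 on ST-HSC mock. Its 1.68-fold difference with CreER in LT-HSC colonies was the largest of the synthesis side. Elovl6, the elongase of palmitate, was at 10.96, 10.40, 10.52 and 10.54 in the same order. Fasn, the fatty acid synthase, was higher by 0.39 and Acly, which supplies cytosolic acetyl-CoA, by 0.43. Acaca, the carboxylase that makes malonyl-CoA, was higher by 0.29 and 0.21 on its 2 probe sets. Fads1, the delta-5 desaturase, was higher by 0.22. The stearoyl-CoA desaturases Scd1 and Scd2 were higher by 0.45 and 0.22.

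On the LXR side, Ch25h, the enzyme that makes 25-hydroxycholesterol, was at 8.95 on LT-HSC CreER, 10.26 on LT-HSC mock, 9.06 on ST-HSC CreER and 8.34 on ST-HSC mock. The LT-HSC mock array stood far above the others and CreER was 2.47-fold lower there. Nr1h3, which encodes LXR alpha, was at 8.36, 8.84, 9.10 and 9.04 in the same order, and on LT-HSC CreER stood close to the floor of 8.13. Abcg1, an exporter of sterol to lipoproteins, was at 11.74, 12.26, 12.29 and 12.48. Abca1, the exporter to lipid-poor apolipoprotein A-I, was lower by 0.57 with CreER in LT-HSC colonies. Mylip, the LXR-induced ligase that directs lipoprotein receptors to destruction, was lower by 0.26, which lies inside the 10th percentile of all genes at -0.33.

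**Figure D2:**
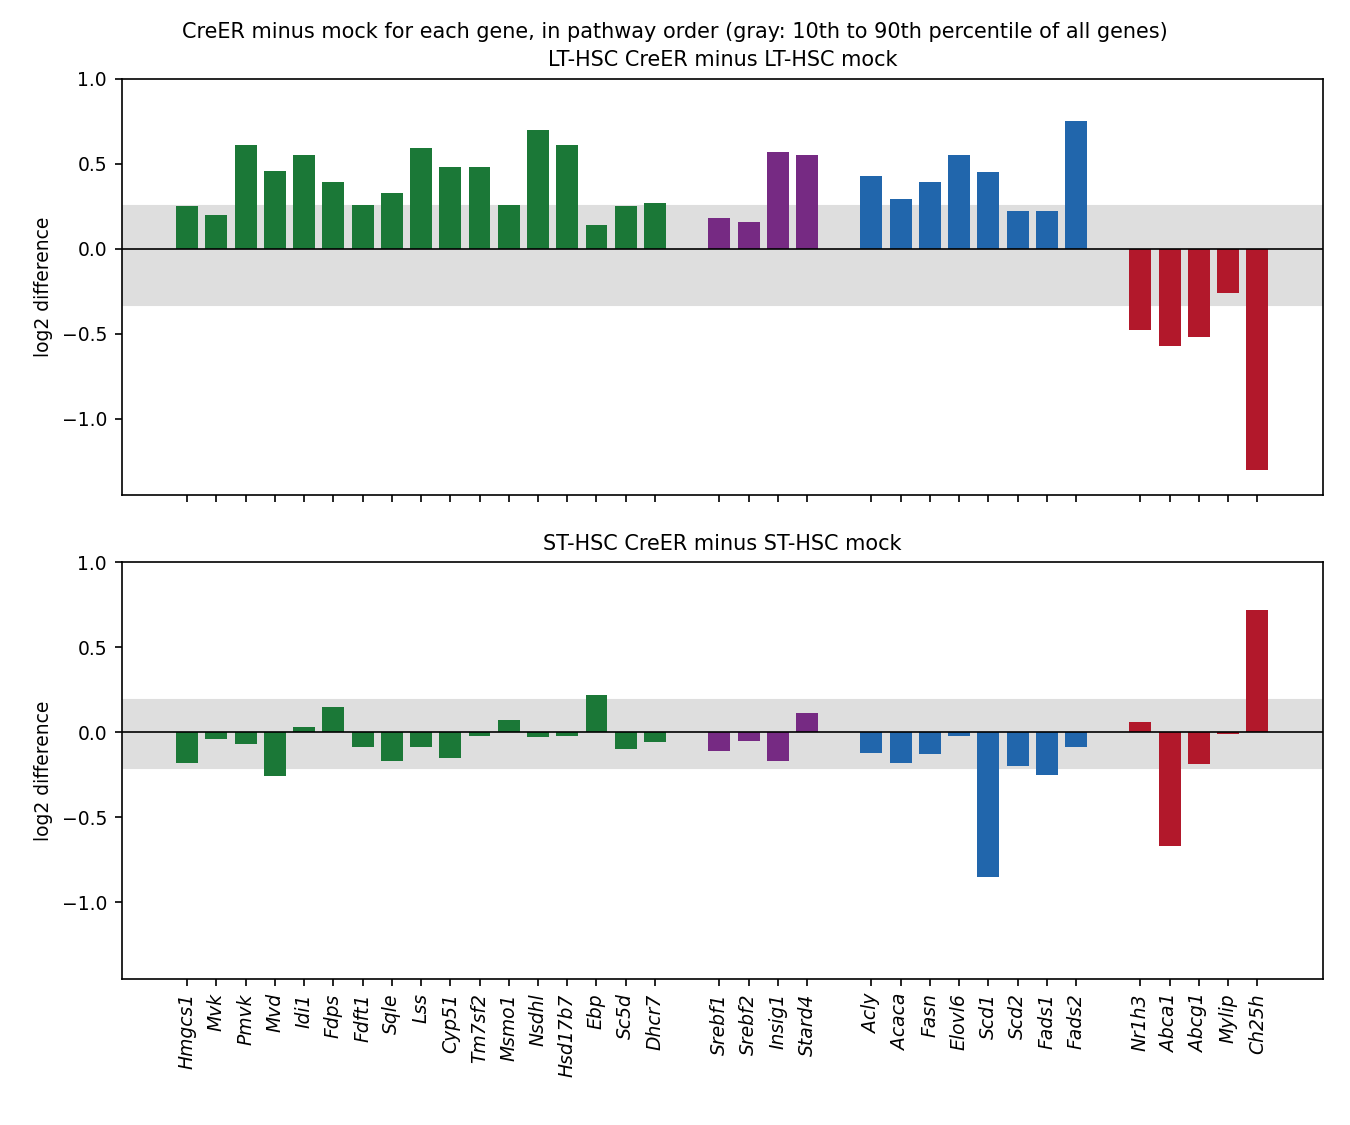
CreER minus mock (y axis, log2 units) for each gene in pathway order, in LT-HSC colonies (upper panel) and ST-HSC colonies (lower panel), with bars from 0 and colours for sterol enzymes (green), regulators and carrier (purple), fatty acid genes (blue) and the LXR side (red). The gray band is the 10th to 90th percentile of all genes past the floor; in the upper panel 29 of 29 synthesis-side bars point up and 5 of 5 LXR-side bars point down, and in the lower panel 24 of the 29 point down.

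Genes of growth and of macrophages differed in the same comparison. Of the cell cycle list, 24 of 24 were higher with CreER in LT-HSC colonies, by 0.20 to 0.53 with a median of 0.35. The mean level of that list was 11.46 on LT-HSC CreER, 11.10 on LT-HSC mock, 11.38 on ST-HSC CreER and 11.36 on ST-HSC mock, and the mean of the synthesis side was 11.19, 10.79, 10.92 and 11.02. Counts above or below 0 and medians of the marker and further pathway lists run over all measured genes, unless the floor is named. Of the monocyte and macrophage markers, 12 of 13 were lower, with a median of -0.48, and their mean level was 10.35, 11.07, 10.73 and 11.06. Past the floor, 11 of 11 were lower, with a median of -0.56. C1qa and C1qb, genes of resident macrophages, were under the floor on every array, whereas Csf1r and Cd68 were well above it, Cd68 at 12.93 to 13.52. The dendritic cell markers had a median of -0.30, with 7 of 10 lower and a mean level of 8.67, 9.06, 8.80 and 8.93. All 7 dendritic cell markers past the floor were lower, with a median of -0.74. The mast cell and basophil markers had a median of -0.41, with 11 of 14 lower and mean levels of 10.20, 10.62, 9.18 and 8.80. Neutrophil markers were higher for 12 of 16, with a median of 0.18. At least 1.5-fold higher were 3 of them, against 1.02% of all genes, among them Prtn3 at 0.89, a protease of early granules. At least 1.5-fold lower was 1, Retnlg at -0.79, against 3.08% of all genes. Eosinophil markers had a median of 0.21, with 5 of 7 higher, and megakaryocyte and platelet markers a median of 0.12, with 3 of 6 higher. The stromal, adipocyte and hepatocyte list, mostly signal under the floor, was above 0 for 12 of 12, with a median of 0.19. The part of these lists in the differences of the synthesis and LXR genes was not tested.

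In ST-HSC colonies CreER did not go with a higher synthesis programme. Of the 29 synthesis-side genes, 24 were lower with CreER, with a median of -0.09, and 5 were higher. Of all 10047 genes clearing the floor, 42.6% had a difference above 0, and their median was -0.03. The 10th and 90th percentiles of all genes lay at -0.21 and 0.19, and of the 29 genes 1 lay above the 90th and 3 below the 10th. In all, 3 members were at least 1.5-fold different: Scd1 and Abca1 were lower, against 0.567% of all genes, and Ch25h was higher, against 1.42%. None was 2-fold different, against 0.518%. The cell cycle list had a median of 0.02 there, with 15 of 24 above 0.

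Scd1, which puts the first double bond into saturated fatty acids, was at 9.88 on ST-HSC CreER, 10.74 on ST-HSC mock, 10.74 on LT-HSC CreER and 10.28 on LT-HSC mock. The ST-HSC CreER array was the low one, and CreER was 1.81-fold lower than mock in ST-HSC colonies, at the 0.1 percentile of all genes. Its paralog Scd2 was at 13.17, 13.37, 13.34 and 13.11 in the same order and differed by -0.20. Abca1 was at 8.25 on ST-HSC CreER, 8.92 on ST-HSC mock, 8.82 on LT-HSC CreER and 9.39 on LT-HSC mock. It was lower with CreER in both populations, by 0.67 and 0.57 log2 units, and the ST-HSC CreER level lay near the floor of 8.07. Ch25h was higher by 0.72, against -1.30 in LT-HSC colonies. Mvd and Fads1 were lower by 0.26 and 0.25, and Ebp was higher by 0.22. In the same comparison 12 of 13 monocyte and macrophage markers were lower, with a median of -0.31. Granulocyte markers were higher: 4 of 7 eosinophil markers were at least 2-fold higher and 6 of 7 were above 0, and neutrophil markers had a median of 0.24, with 14 of 16 higher and 3 at least 2-fold. Mast cell and basophil markers had a median of 0.36, with 11 of 14 higher and 2 at least 2-fold, and megakaryocyte and platelet markers a median of 0.20, with 5 of 6 higher. Of all genes past the floor, 0.518% were 2-fold different in either direction. Dendritic cell markers were lower for 8 of 10, with a median of -0.11. The part of these lists in the differences of Scd1, Abca1, Ch25h and the other members was not tested.

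The CreER differences in the populations use separate pairs of arrays. Of the 29 synthesis-side genes, 24 were higher with CreER in LT-HSC colonies and lower in ST-HSC colonies, against 21.9% of the 9809 genes past the floor in both. This held for 8 of 8 fatty acid genes, 13 of 17 sterol enzymes and 3 of 4 regulators. The CreER difference was larger in LT-HSC colonies for 28 of 29, with a median excess of 0.50, and Ebp was the exception at -0.09. For Scd1 the excess was 1.31. Of the cell cycle list, 24 of 24 had a larger CreER difference in LT-HSC colonies, with a median excess of 0.31. So did 12 of 12 of the stromal, adipocyte and hepatocyte list, mostly signal under the floor, with a median excess of 0.23. Higher with CreER in LT-HSC colonies and lower in ST-HSC colonies were 9 of the 24 and 8 of the 12. With 1 array per group the excess has no test.

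**Figure D3:**
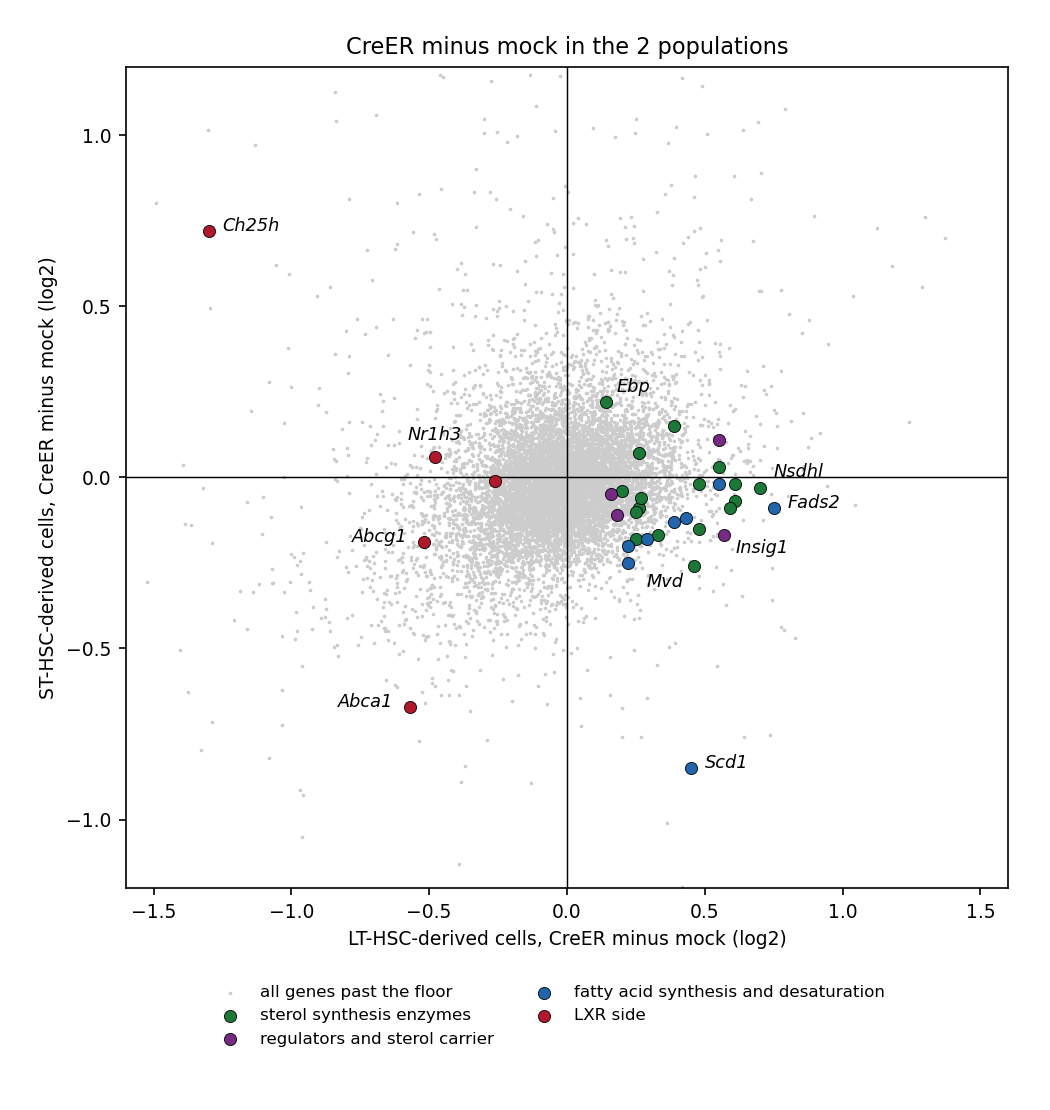
CreER minus mock in LT-HSC colonies (x axis, log2) against the same in ST-HSC colonies (y axis, log2); gray dots are the 9809 genes past the floor in both comparisons, of which 29 lie beyond the axes, and coloured points are the 34 members by role. The synthesis-side points all lie right of 0 and mostly below 0, Scd1 lies lowest at -0.85, and Ch25h lies alone at the upper left.

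With mock, the synthesis genes were lower in LT-HSC than in ST-HSC colonies. Of the 29, 28 were below 0, with a median of -0.16 and a range of -0.55 to 0.02, whereas 45.1% of all 10208 genes past the floor were above 0. Fads2 (-0.55), Pmvk (-0.49), Tm7sf2 (-0.49) and Nsdhl (-0.48) were furthest below 0, and Msmo1 (0.02) was the one above it, with 0 of 29 above 0 when arrays were centred on their medians. No synthesis-side gene was at least 1.5-fold lower, against 2.62% of all genes. Ch25h was 3.79-fold higher in LT-HSC colonies, the one member past 1.5-fold higher (5.47% of all genes) and the one past 2-fold in either direction (3.12%). Abca1 was higher by 0.47, and Mylip, at 9.86 against 10.30, was lower by 0.44. This comparison shares the LT-HSC mock array with that of CreER against mock in LT-HSC colonies, so a low or high level on that array enters both. Cell cycle genes were lower for 23 of 24, with a median of -0.23, and mast cell and basophil markers were higher for 13 of 14, with a median of 2.11. Megakaryocyte and platelet markers were higher for 6 of 6, with a median of 1.34, eosinophil markers for 7 of 7, with a median of 0.39, and neutrophil markers were lower for 12 of 16, with a median of -0.15. Over the 5 eosinophil markers past the floor the median was 1.92. The part of these lists in the member differences was not tested.

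With CreER, the direction was the other way. Of the 29 synthesis-side genes, 26 were higher in LT-HSC than in ST-HSC colonies, with a median of 0.22, against 46.1% of all 10189 genes past the floor, or 35.1% when each array was centred on its median, where 25 of 29 were above 0. Fatty acid genes were higher for 8 of 8, with a median of 0.31, and regulators for 4 of 4. Scd1 (0.85), Insig1 (0.72) and Lss (0.60) were at least 1.5-fold higher, against 3.62% of all genes, and Fasn (0.51), Cyp51 (0.49) and Sqle (0.46) followed. The sterol enzymes Mvk, Ebp and Dhcr7 were below 0, of which Ebp at -0.31 was furthest. Of the LXR side, 4 of 5 were lower: Nr1h3 (-0.74) and Mylip (-0.70) were at least 1.5-fold lower, against 3.22% of all genes, Abcg1 differed by -0.55 and Ch25h by -0.11. Abca1 was higher by 0.58. No member was 2-fold different, against 1.94%.

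Cell cycle genes were nearly level in that comparison, with a median of 0.07 and 17 of 24 above 0. Monocyte and macrophage markers were lower for 11 of 13, with a median of -0.34, and mast cell and basophil markers were higher for 11 of 14, with a median of 0.88. Past the floor the first were lower for 10 of 10, with a median of -0.48, and the second higher for 11 of 12, with a median of 1.35. Megakaryocyte and platelet markers were higher for 6 of 6, with a median of 1.36, eosinophil markers for 6 of 7, with a median of 0.34, and neutrophil markers were lower for 13 of 16, with a median of -0.14. Over the 5 eosinophil markers past the floor the median was 0.61. The part of these lists in the member differences was not tested. The level on LT-HSC CreER also enters the comparison of CreER against mock in LT-HSC colonies.

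Other genes of the pathway were set beside the members from further lists. The median over SREBP processing and degradation genes was -0.08 for CreER against mock in LT-HSC colonies and -0.05 for LT-HSC against ST-HSC with CreER, and 0 of 10 were 1.5-fold higher or lower in the first. Scap, the SREBP escort, differed by 0.06, and Insig2, the second retention gene, by 0.05. Other sterol and isoprenoid genes, among them the geranylgeranyl synthase gene Ggps1 (-0.20), had a median of -0.11, with 3 of 11 above 0. Sterol uptake and trafficking genes had a median of -0.15, with 10 of 13 lower; Lipa, the lysosomal acid lipase, and Npc1, which exports sterol from lysosomes, were lower by 0.56 and 0.55, and the lipoprotein receptor gene Scarb1 was higher by 0.37. For other fatty acid and glycerolipid genes the median was 0.08, and 20 of 28 lay above 0. Of the 21 past the floor, 14 were above 0 and 7 below, with a median of 0.04. In that list Slc25a1, the citrate carrier that feeds Acly, was higher by 0.25 and Acss2, the acetyl-CoA synthetase, by 0.24.

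Of the other LXR targets and partners, 9 of 17 passed the floor in LT-HSC colonies. Their median was -0.05, and over all 17 it was 0.08. Smpdl3a (-0.72), Rxra, the partner receptor (-0.69), and Pltp, the phospholipid transfer protein (-0.60), were at least 1.5-fold lower with CreER. Of all genes past the floor, 3.08% were. Of the 9, 4 were above 0. With CreER, Smpdl3a was lower by 1.06 in LT-HSC than in ST-HSC colonies.

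**Figure D4:**
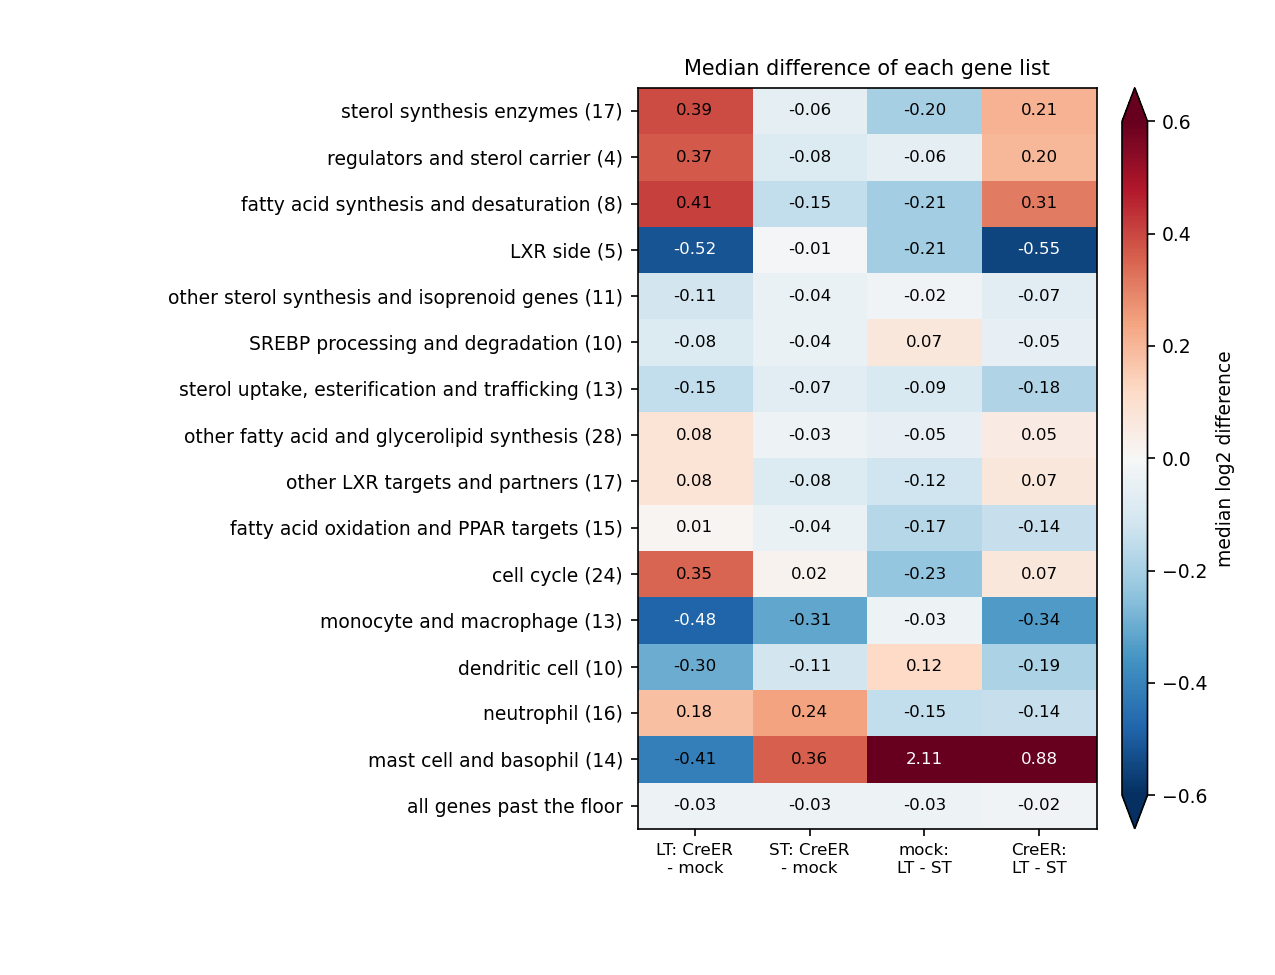
Median log2 difference of each gene list (rows, number of measured genes in parentheses) in the 4 comparisons (columns), printed and coloured from lower (blue) to higher (red), with colours saturating at 0.6 on either side. The 3 synthesis rows read 0.37 to 0.41 for CreER against mock in LT-HSC colonies, next to 0.35 for the cell cycle row, and the LXR row reads -0.52.

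An additive limma fit over the 4 arrays, with terms for population and transduction, tested 10411 genes and all 34 members. For CreER against mock, 0 genes (0%) passed at 0.05 after Benjamini-Hochberg adjustment. An unadjusted p under 0.05 was found for 1048 of the 10411 genes and for 3 of the 34 members, a share no larger than that of all genes. The 3 were Abca1, lower by 0.62 (SE 0.09, limma adjusted p = 0.316), Abcg1, lower by 0.35 (SE 0.12, limma adjusted p = 0.429), and Fdps, higher by 0.27 (SE 0.10, limma adjusted p = 0.488). This fit gives each gene 1 CreER effect for both populations. For Insig1 that effect was 0.20 (SE 0.19, limma adjusted p = 0.758).

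For LT-HSC against ST-HSC, 653 genes (6.27%) passed, 394 higher and 259 lower, or 325 higher and 339 lower with arrays centred on their medians. Of the 34 members, 2 passed, a share close to that of all genes. Abca1 was higher by 0.52 in LT-HSC colonies (SE 0.09, limma adjusted p = 0.0442) and Mylip was lower by 0.57 (SE 0.11, limma adjusted p = 0.0465). Both lie next to the threshold, and neither passed after quantile or cyclic loess normalization. No gene of the synthesis side passed for either factor. From the further pathway lists, the lipoprotein lipase gene Lpl passed, lower by 0.50 (SE 0.09, limma adjusted p = 0.0461). With 1 array per group, the residual of this fit is how far the arrays depart from additive population and CreER effects. A CreER difference that varies between the populations therefore enters the SE, together with any technical difference between arrays. These p-values do not measure a spread between replicates, and the labels do not tie the arrays to separate mice.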

How the data were processed

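Expression was measured on 4 Affymetrix gene arrays, 1 per group. The deposited log2 values per probe set were made with Affymetrix Expression Console, per the submitters' processing notes; not given in the sources used here are its version, the summarisation and any normalization, and the log2 unit was read from the range of the values. Values were used as deposited. Of 35556 probe sets, 21789 had 1 gene symbol in the platform annotation, 1621 several and 12146 none; only the first were named. They gave 19938 genes, each represented by its brightest probe set. Pairwise differences were counted at 2-fold with the higher array above the floor, and at 1.5-fold as an alternative, with no test. The additive fit used limma 3.58.1 in R 4.3.3 (lmFit, eBayes), with 1 residual and 4.27 prior degrees of freedom.

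A simulation of the CreER fit over 10411 genes gave changed genes the same change in both populations. The fit called 100 of 100 changes of 1 log2 unit and 100 of 100 of 2. Of all 245 calls, 45 were false, so calls of this fit are uncertain, those near the threshold included. Smaller changes, and changes that differ between the populations, were not simulated. Members and lists were chosen with earlier results of these data known. Every member could be named; pathway genes were named when past 2-fold in a comparison, with up to 3 others a list, and up to 4 markers a list. Alternatives were quantile and cyclic loess normalization, centring on the median, thresholds of 1.5-fold and 3-fold, no floor or one at the 75th percentile, the mean of all probe sets, an intensity trend in eBayes and an adjusted p of 0.1. The number of arrays limits the precision.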

Additional observations from a re-analysis of the deposited data

Results flagged for a closer look

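CreER minus mock had opposite directions in the populations for these results; the difference was not tested, since each group held 1 array. Ch25h was at -1.30 in LT-HSC colonies and 0.72 in ST-HSC colonies. The sterol synthesis enzymes had medians of 0.39 and -0.06, the regulators and sterol carrier 0.37 and -0.08, and the fatty acid genes 0.41 and -0.15. The ST-HSC medians lie close to 0, where all genes had a median of -0.03.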

How the results depend on the processing

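The directions held under the scalings tried: after quantile normalization, cyclic loess normalization, centring, or averaging probe sets, 29 of 29 synthesis-side genes stayed above 0 and 5 of 5 LXR-side genes below 0 for CreER against mock in LT-HSC colonies, and the synthesis median ranged from 0.36 to 0.40. In ST-HSC colonies the LXR-side median, -0.01, was 0.01 after quantile and after cyclic loess normalization. All 544 recomputed differences of single members moved by less than 0.102, the limma prior SD. Of 112 recomputed role medians, 1 moved further: the LXR side for CreER against mock in LT-HSC colonies was -0.91 with the floor at the 75th percentile, where fewer genes remain. Taking only members past the signal floor, an alternative chosen after seeing the data, changed no median, since every member passes it. The role medians with no floor could not change either, since the main medians already run over every measured member. Averaging probe sets could move only Acaca, Fdft1 and Idi1, the members with more than 1 probe set, and the medians that include them. The 1.5-fold threshold gave 6 members for CreER against mock in LT-HSC colonies, 3 in ST-HSC colonies and 5 for LT-HSC against ST-HSC with CreER. There 2-fold gave 1, 0 and 0, and the 3-fold threshold gave 0 in the first. The shares of all genes at 1.5-fold and 2-fold are given with each comparison above. The limma count for LT-HSC against ST-HSC, 653, was 1401 at an adjusted p of 0.1, 368 after cyclic loess normalization and 186 with the floor at the 75th percentile. Across alternatives the limma adjusted p ranged from 0.0375 to 0.0581 for Abca1 and from 0.0362 to 0.0747 for Mylip. No paired analysis was possible because each group has 1 array and the labels give no replicate numbers. No array could be left out of the additive fit, which has 1 residual degree of freedom.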

Other observations

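Among genes of fatty acid oxidation and PPAR targets, Cd36, the fatty acid and scavenger receptor, was at 10.30 on LT-HSC CreER, 11.83 on LT-HSC mock, 11.69 on ST-HSC CreER and 11.99 on ST-HSC mock, with the LT-HSC CreER array low. Fabp4, a fatty acid binding protein, was lower by 0.96 with CreER in LT-HSC colonies and by 0.93 in ST-HSC colonies. In limma it was lower by 0.75 in LT-HSC than in ST-HSC colonies (SE 0.09, limma adjusted p = 0.0182). Pparg, the nuclear receptor that raises both, was at 11.84, 12.37, 11.49 and 11.67 in that order of arrays. The carnitine transferase gene Cpt1a, which admits fatty acids to mitochondria, differed by 0.05 with CreER in LT-HSC colonies. Over the 15 measured genes of oxidation and PPAR targets the median was 0.01. Cd36 and Fabp4 are also macrophage genes, and the monocyte and macrophage markers were lower in the same comparison, with a median of -0.48.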
